A study of Mus musculus with 8 samples.

Results

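Ribosome assembly in the nucleolus is tied to the tumour suppressor p53 through a small set of proteins. The transcripts of 10 genes of that set were followed in embryonic heart ventricles with a cardiomyocyte-specific knockout of Rps19bp1. The genes were taken by symbol from the rows of the deposited table on primary chromosomes. They were Rpl5, Rpl11, Rrs1, Rpf2, Npm1, Gnl3, Mdm2, Mdm4, Trp53 and Usp7. Each symbol stood on 1 row, so the set covered 10 of the 52778 rows in the table. All 10 passed a minimum mean level of 1 TPM (a level per transcript length, scaled to the same total in each library), as did 15541 rows in all.

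RNA sequencing libraries from mouse (Mus musculus) ventricles at embryonic day 11.5 were compared, 4 from conditional knockout embryos (cKO, Rps19bp1 fl/fl; Xmlc2-Cre +/-) and 4 from control embryos. Xmlc2-Cre acts in cardiomyocytes. How far the gene was lost in these and kept in the other cells of the ventricle cannot be read from bulk tissue. The labels give the controls no more than the word control and state that no drug or other treatment was applied. They name C57BL/6 WT for all 8 libraries, in conflict with the knockout named for 4 of them, and groups were taken from the sample titles. The extraction protocol names cortical neurons in culture, in conflict with the ventricular tissue named elsewhere, and the texts also disagree on the RNA kit and on whether ribosomal RNA was depleted or mRNA selected. In bulk tissue, fewer cells of a type and less RNA per cell cannot be told apart.

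When ribosome assembly stalls, free ribosomal proteins Rpl5 and Rpl11, bound to 5S ribosomal RNA, can hold the ubiquitin ligase Mdm2 and keep it from marking p53 for degradation. Rrs1 and Rpf2 normally dock this 5S particle onto the growing large subunit. Mdm4 is a relative of Mdm2 that binds and restrains p53, and Usp7 removes ubiquitin from both p53 and Mdm2. Npm1 (nucleophosmin) and Gnl3 (nucleostemin) are abundant nucleolar proteins that can also bind Mdm2. Much of this control acts on proteins, which RNA levels do not measure. Mdm2 is in addition a transcriptional target of p53, so that its RNA is one of the readouts of p53 activity.

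The sequence before the annotated start was examined for the p53 decamer, the 10-base consensus that p53 response elements usually carry as a pair. RefSeq promoter entries of GRCm38.p6 were at hand for 8 of the 10 genes, with 10 start sites in all. The windows of Mdm2, Trp53 and Mdm4 are shown because their transcripts are p53 itself and its main inhibitors. Each is 250 bases long, ends at the base before the start and is written 5′ to 3′ on the gene's strand, with the decamer in capitals. The Mdm2 window is chr10:117710759-117711008 (minus strand), the Trp53 window chr11:69580109-69580358 (plus strand) and the Mdm4 window chr1:133030588-133030837 (minus strand).
Mdm2: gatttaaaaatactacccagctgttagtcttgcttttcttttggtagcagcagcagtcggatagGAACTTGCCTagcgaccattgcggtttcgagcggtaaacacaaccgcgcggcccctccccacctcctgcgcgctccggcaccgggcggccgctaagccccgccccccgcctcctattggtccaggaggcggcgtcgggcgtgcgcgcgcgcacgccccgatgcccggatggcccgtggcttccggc
Trp53: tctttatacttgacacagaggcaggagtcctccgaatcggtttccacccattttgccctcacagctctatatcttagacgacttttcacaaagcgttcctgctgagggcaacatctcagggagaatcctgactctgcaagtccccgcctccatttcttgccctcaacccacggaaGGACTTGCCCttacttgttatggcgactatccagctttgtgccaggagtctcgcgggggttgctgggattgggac
Mdm4: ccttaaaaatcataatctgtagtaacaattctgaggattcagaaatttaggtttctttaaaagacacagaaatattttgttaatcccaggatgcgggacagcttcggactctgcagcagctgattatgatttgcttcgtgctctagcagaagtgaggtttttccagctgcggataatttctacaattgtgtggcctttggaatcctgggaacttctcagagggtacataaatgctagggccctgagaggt
The Mdm2 window held 1 decamer with its first base at -186 and the Trp53 window held 1 with its first base at -75, where -1 is the base before the start. No decamer was found in the windows of the other 6 genes. The motif was searched once, since its consensus reads the same on both strands, and 7.13% of all 32851 promoter windows of this length held at least 1. A match is a description of letters and no evidence of binding. The p53-responsive promoter of Mdm2 lies in its first intron, outside this window, and was not analysed here.

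The libraries differed as labelled in the targeted gene. Rps19bp1 (chr15:80260614-80264306, GRCm38) lay between 11.8 and 19.2 TPM in cKO and between 34.7 and 44.2 TPM in control, a log2 change of -1.37. Cardiomyocyte markers (14 of 14 tested) summed to between 50113 and 52630 TPM in cKO and between 50327 and 54887 TPM in control. Of these markers 11 had a fitted change below 0 and 1 was called lower, the cardiac transcription factor gene Nkx2-5 (-0.48). The other 3 were above 0, with the largest rise in Nppa (0.44), which did not pass (limma adjusted p = 0.0768). Of 10 neuronal markers, 9 had a mean below 1 TPM. Of the 15541 rows tested, limma placed 994 past an adjusted p of 0.05, with 336 higher and 658 lower in cKO. This balance depended on scaling, with 383 higher and 380 lower after quantile normalization and 388 higher and 396 lower after rescaling without mitochondrial and globin rows. The median log2 change of all tested rows was -0.02.

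Among the 10 genes, 1 passed the test and rose (Mdm2), none fell, and the other 9 did not pass. Over all tested rows 6.4% were called, 2.16% higher and 4.23% lower, so 1 call among 10 is not far from the background. A further 3 genes (Npm1, Rpf2 and Trp53) had an unadjusted p under 0.05, as did 23.7% of all tested rows. The groups did not overlap in 2 of the 10 genes, Mdm2 and Usp7, and in 15.6% of all tested rows. The fitted log2 change was above 0 for 3 genes and below 0 for 7, with a median of -0.05. It was above 0 for 5 and below 0 for 5 after quantile normalization and after rescaling without mitochondrial and globin rows. In the plot of fitted changes the intervals of 6 genes span 0, and those of Mdm2, Npm1, Rpf2 and Trp53 do not. These intervals are not adjusted for the number of rows tested.

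**Figure D1:**
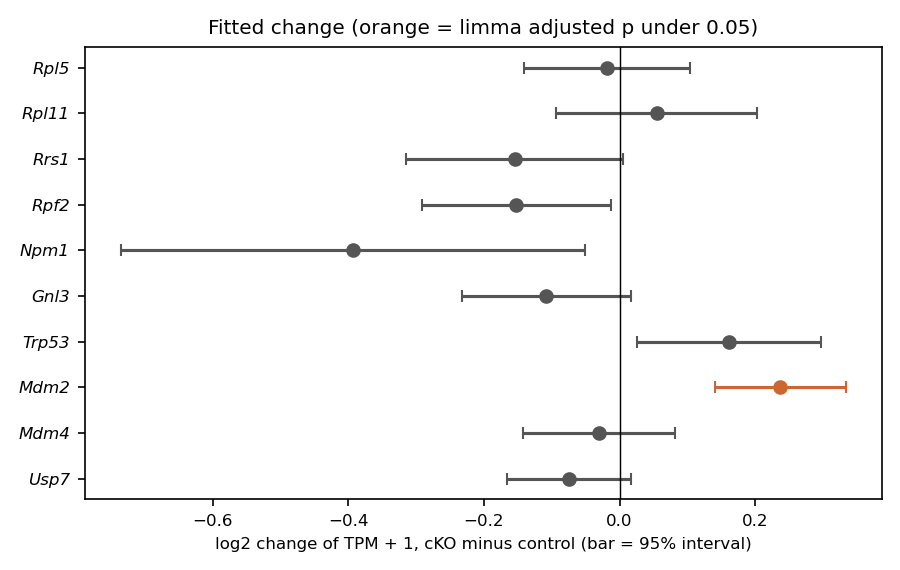
Fitted log2 change of TPM + 1 (cKO minus control, horizontal axis) for each of the 10 genes (vertical axis), with bars for the 95% interval of limma's fit over 4 cKO and 4 control libraries. Mdm2 at 0.24 is the gene past an adjusted p of 0.05, and Npm1 at -0.39 has the widest interval.

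The ribosomal proteins and nucleophosmin were far more abundant than the other genes in control ventricles. Rpl11 stood highest at 772 ± 54.5 TPM (SD, n = 4), followed by Rpl5 at 656 ± 25.9 TPM and Npm1 at 649 ± 65.7 TPM, and the control ranges of Rpl5 and Npm1 overlapped. The next gene, Trp53, was 7.52 times lower than Npm1, at 86.3 ± 7.47 TPM. Gnl3 (58.9 ± 2.25 TPM), Usp7 (52.7 ± 1.14 TPM), Mdm4 (41.8 ± 1.84 TPM) and Mdm2 (39.9 ± 1.20 TPM) followed. In this stretch the control ranges of Mdm4 and Mdm2 overlapped and the other neighbours stood apart. Rrs1 (34.6 ± 1.75 TPM) and Rpf2 (28.5 ± 1.55 TPM) had the lowest levels, and their control ranges did not overlap.

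**Figure D2:**
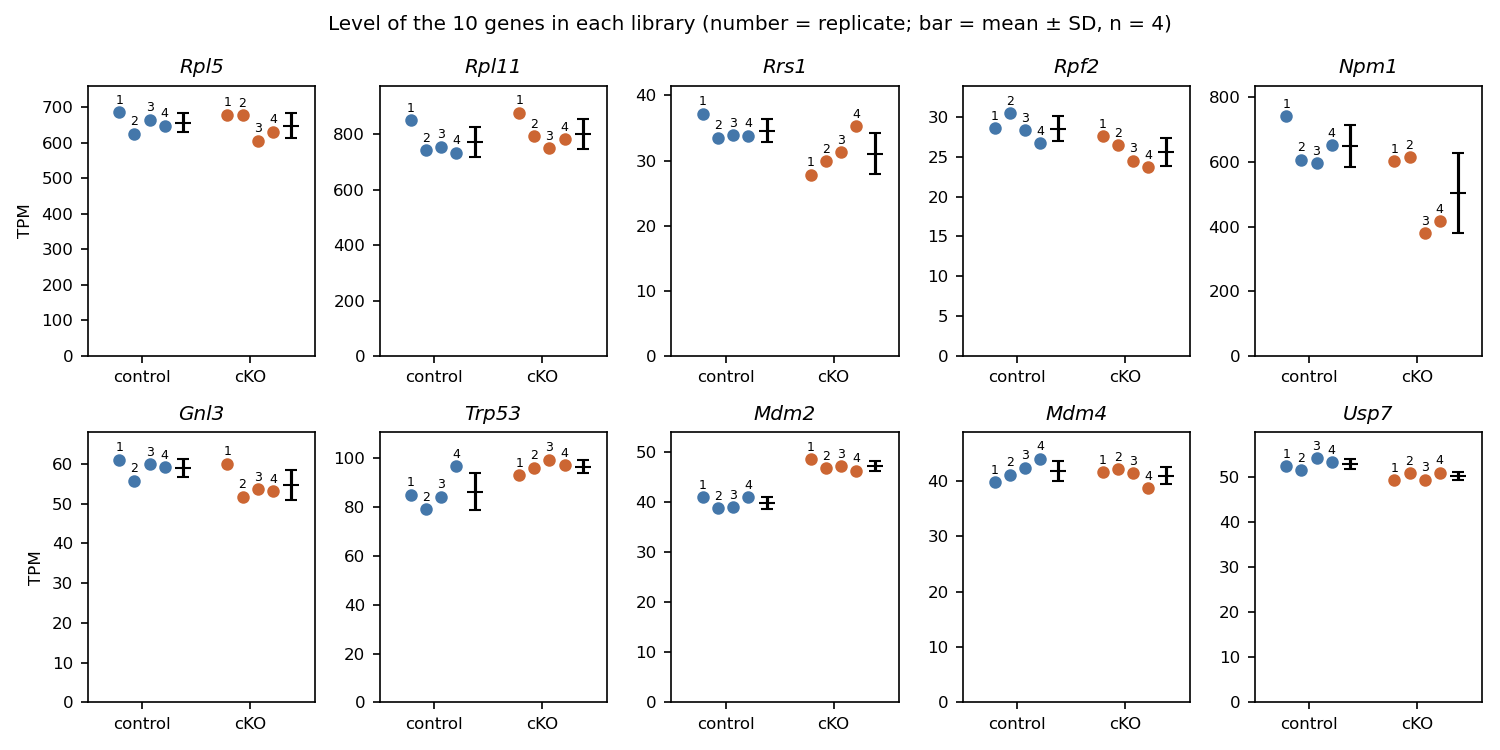
TPM (vertical axes, from 0) of each gene in the 4 control (blue) and 4 cKO (orange) libraries, with the replicate number above each point and the mean ± SD as a black bar. Mdm2 lies between 46.2 and 48.5 TPM in cKO, above all control libraries, and Npm1 is low in cKO libraries 3 and 4.

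Rpl5 and Rpl11 are the ribosomal proteins of the 5S particle. Rpl5 (chr5:107900508-107909005) stood at 679, 677, 605 and 631 TPM in cKO libraries 1 to 4 and at 686, 625, 665 and 648 TPM in control libraries 1 to 4. The groups overlapped, with cKO library 3 below every control. Its log2 change was -0.02, with a 95% interval from -0.14 to 0.10 (limma adjusted p = 0.874), and the sign turned after quantile normalization (0.018) and after rescaling without mitochondrial and globin rows (0.017). Rpl11 (chr4:136049354-136053393) stood at 878, 794, 751 and 782 TPM in cKO and at 852, 743, 757 and 735 TPM in control. Its groups overlapped as well, and library 1 was the highest of each group. The log2 change was 0.05, with an interval from -0.09 to 0.20 (limma adjusted p = 0.670).

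The pair was placed among 45 other genes for large-subunit ribosomal proteins. Their mean control levels ran from 75.9 TPM (Rpl21) to 2051 TPM (Rpl41) with a median of 857 TPM, and 27 of them stood above Rpl5 and 24 above Rpl11. Their log2 changes ran from -0.31 to 0.16 with a median of 0.00, and 25 of them lay above Rpl5 and 13 above Rpl11. None of the 45 was called by limma, against 6.4% of all rows, and 6 had an unadjusted p under 0.05, against 23.7%. The most abundant in control, Rpl41 and Rplp0 (an acidic stalk protein), had log2 changes of 0.14 and 0.05. Some Rpl5 reads may stem from processed copies of the gene or be assigned to them, and the pseudogene row Rpl5-ps1 held between 30.8 and 36.3 TPM. The Rpl5 row also overlaps Dipk1a (7.40 to 9.59 TPM) on the opposite strand by 964 bp.

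**Figure D3:**
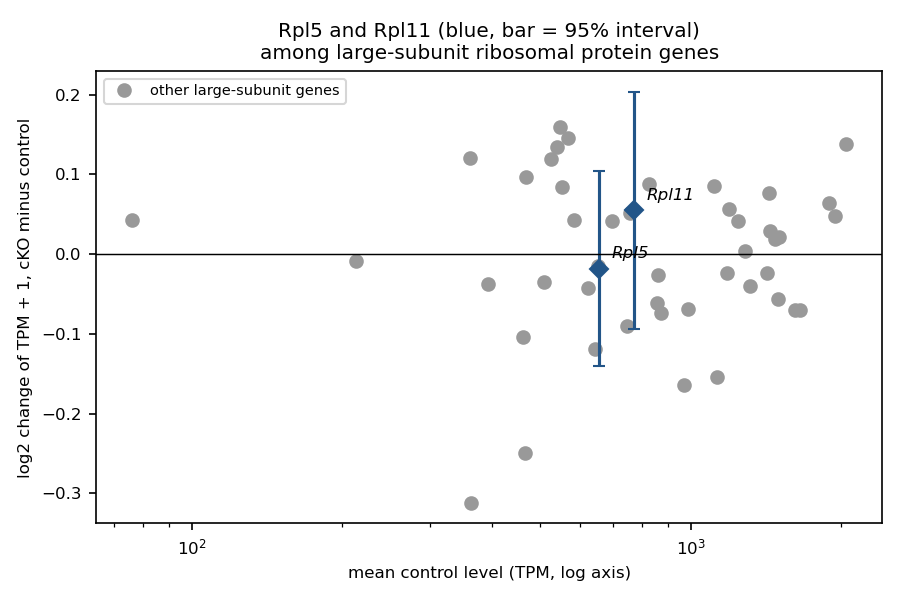
Fitted log2 change (cKO minus control, vertical axis) against mean control level in TPM (horizontal log axis) for 45 large-subunit ribosomal protein genes (grey) and for Rpl5 and Rpl11 (blue, bars give the 95% interval). Rpl5 at -0.02 and Rpl11 at 0.05 lie within the span of the other genes, -0.31 to 0.16.

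Rrs1 and Rpf2 form the complex that brings the 5S particle to the pre-ribosome. Rrs1 (chr1:9545408-9547455) stood at 27.8, 30.0, 31.3 and 35.2 TPM in cKO libraries 1 to 4 and at 37.2, 33.5, 33.9 and 33.8 TPM in control. In 3 of 4 cKO libraries it was below every control, and library 4 lay inside the control range. Its mean was 89.8% of control, with a log2 change of -0.15 and an interval from -0.31 to 0.01 (limma adjusted p = 0.226). Rpf2 (chr10:40223246-40247039) stood at 27.6, 26.4, 24.5 and 23.7 TPM in cKO and at 28.6, 30.5, 28.3 and 26.7 TPM in control. Here too 3 of 4 cKO libraries were below every control, but library 1 was the one inside the control range. Its mean was 89.7% of control, with a log2 change of -0.15 and an interval from -0.29 to -0.01 (limma adjusted p = 0.176). Within the cKO group the library with the lowest Rrs1 had the highest Rpf2, and the library with the highest Rrs1 had the lowest Rpf2.

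Other factors of 5S particle docking and of large-subunit assembly in general were read from a list of 20 genes, all of them tested. None was called by limma in either direction, against 6.4% of all rows, and 2 had an unadjusted p under 0.05, against 23.7%. The fitted change was below 0 for 16 of the 20 and above 0 for 4, with a median of -0.05 against -0.02 for all rows. This split was not counted under other scalings. The most abundant in control were Nop53, a nucleolar assembly factor that can bind Rpl11, at 118 ± 6.49 TPM in cKO against 129 ± 7.13 TPM in control (SD, n = 4), and Rsl1d1 at 109 ± 1.69 TPM against 116 ± 8.29 TPM. Neither passed the test, with limma adjusted p of 0.202 for Nop53 and 0.420 for Rsl1d1. Genes of dividing cells were lower in cKO, with 8 of 10 markers called lower by limma, against 4.23% of all rows. Their summed levels were 717 to 840 TPM in cKO against 967 to 1070 TPM in control. The part of dividing cells in the levels of Rrs1, Rpf2 and the assembly factors was not tested.

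Npm1 and Gnl3 sit in the nucleolus and take part in ribosome production. Npm1 (chr11:33152498-33164142) stood at 603, 615, 379 and 416 TPM in cKO libraries 1 to 4 and at 741, 606, 596 and 652 TPM in control. The cKO libraries split, with 1 and 2 inside the control range and 3 and 4 far below it. The mean was 77.6% of control, and the coefficient of variation was 24.4% in cKO against 10.1% in control. The log2 change was -0.39, with an interval from -0.74 to -0.05 (limma adjusted p = 0.157), and it was -0.27 without cKO library 3 and -0.31 without cKO library 4. The mitochondrial share of TPM was 13.2% in cKO libraries 1 and 2, 16.2% in library 3 and 14.1% in library 4, against 11.4% to 12.2% in control, so every cKO library was above every control. After rescaling without mitochondrial and globin rows the log2 change of Npm1 was -0.36 (limma adjusted p = 0.185), and the part of the mitochondrial share in its split was not tested.

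Gnl3 (chr14:31012433-31019131) did not follow the split seen in Npm1. It stood at 60.0, 51.8, 53.7 and 53.2 TPM in cKO libraries 1 to 4 and at 61.0, 55.8, 59.9 and 59.1 TPM in control. In 3 of 4 cKO libraries it was below every control, and library 1 lay inside the control range. The log2 change was -0.11, with an interval from -0.23 to 0.02 (limma adjusted p = 0.273). The ratio of Npm1 to Gnl3 was 10.05, 11.9, 7.07 and 7.83 in cKO and 12.1, 10.9, 9.96 and 11.0 in control. It did not differ between groups beyond the spread of the libraries (log2 difference -0.28, exact two-sided permutation p = 0.200, adjusted to 0.286 over 3 ratios). The Gnl3 row overlaps Glt8d1 on the opposite strand by 9 bp and holds rows of the small nucleolar RNAs Snord19 and Snord69 in the same direction.

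Trp53 encodes p53 itself. Trp53 (chr11:69580348-69591873) stood at 93.0, 96.0, 99.4 and 97.2 TPM in cKO libraries 1 to 4 and at 85.0, 79.2, 84.1 and 96.8 TPM in control. The groups overlapped through control library 4, which lay above cKO libraries 1 and 2. The log2 change was 0.16, with an interval from 0.03 to 0.30 (limma adjusted p = 0.145). Without control library 4 it was 0.22 and passed the threshold (limma adjusted p = 0.0490). It did not pass when any other single library was left out (limma adjusted p 0.183 to 0.294). The adjacent gene Wrap53 starts 97 bp before Trp53 and runs the other way on the opposite strand, and it did not pass either, with 13.4 ± 1.23 TPM in cKO against 15.8 ± 0.628 TPM in control (SD, n = 4, limma adjusted p = 0.0916). The row Trp53-ps held between 2.17 and 6.55 TPM.

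Mdm2 is the main ubiquitin ligase of p53, and its RNA rose in cKO. Mdm2 (chr10:117688875-117710758) stood at 48.5, 46.7, 47.2 and 46.2 TPM in cKO libraries 1 to 4 and at 40.9, 38.8, 38.9 and 40.9 TPM in control. Every cKO library was above every control, as in 5.33% of all tested rows, and the 4 values within each group were close. The mean was 47.1 ± 0.966 TPM in cKO against 39.9 ± 1.20 TPM in control (SD, n = 4), which is 118% of control. The log2 change was 0.24 (SE 0.0435, interval 0.14 to 0.33, limma adjusted p = 0.0154). The call was lost without control library 3, where the change was 0.23 (limma adjusted p = 0.0508). Epicardial and mesenchymal markers moved with the groups, with summed levels of 432 to 532 TPM in cKO against 368 to 427 TPM in control for 8 epicardial markers, and of 992 to 1183 TPM against 729 to 916 TPM for 10 mesenchymal markers. Of these, 4 epicardial markers were called higher, and 4 mesenchymal markers higher and 1 lower, against 2.16% higher and 4.23% lower over all rows. Endocardial and endothelial markers, with none of 10 called by limma and 5 at an unadjusted p under 0.05 (23.7% of all rows), summed to 824 to 932 TPM in cKO against 768 to 820 TPM in control. No marker of these lists was at 0 in every library, and their part in the rise of Mdm2 was not tested.

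Mdm4, the relative of Mdm2, did not pass the test. Mdm4 (chr1:132986105-133030587) stood at 41.5, 42.1, 41.4 and 38.6 TPM in cKO libraries 1 to 4 and at 39.7, 41.1, 42.4 and 44.0 TPM in control. The groups overlapped, and 1 cKO library was below every control. The row overlaps 2 predicted genes of the opposite strand, both listed below 2.29 TPM. The log2 change was -0.03, with an interval from -0.14 to 0.08 (limma adjusted p = 0.761), and its sign turned after quantile normalization (0.014) and rescaling without mitochondrial and globin rows (0.0044). The ratio of Mdm2 to Mdm4 was 1.17, 1.11, 1.14 and 1.20 in cKO and 1.03, 0.944, 0.918 and 0.929 in control, so the groups did not overlap. The log2 difference of this ratio was 0.27 (exact two-sided permutation p = 0.0286, the smallest that 4 against 4 libraries can give). It did not pass when adjusted over the 3 ratios (0.0857). A ratio that alone reaches the smallest p cannot pass this adjustment, so the adjusted value decides nothing. The ratio of Mdm2 to Trp53 was 0.490 ± 0.0218 in cKO and 0.464 ± 0.0300 in control (SD, n = 4), with overlapping groups and a log2 difference of 0.08 (exact permutation p = 0.286).

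**Figure D4:**
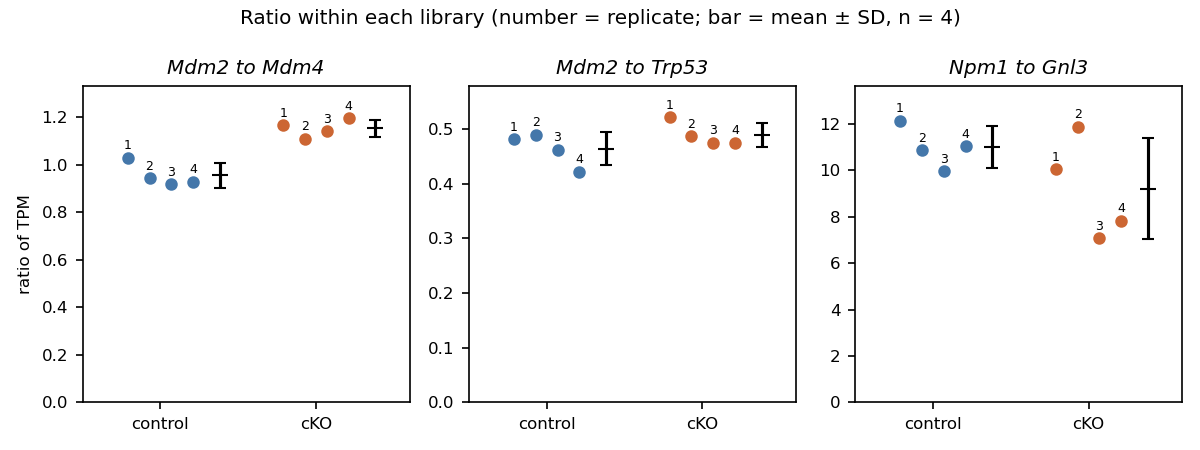
Ratio of TPM within each library (vertical axes, from 0) for Mdm2 to Mdm4, Mdm2 to Trp53 and Npm1 to Gnl3 in 4 control (blue) and 4 cKO (orange) libraries, with replicate numbers and mean ± SD. The Mdm2 to Mdm4 ratio lies between 1.11 and 1.20 in cKO, above all control libraries, and the groups overlap in the other ratios.

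Usp7 stabilises Mdm2 and p53 by removing ubiquitin. Usp7 (chr16:8688722-8757067) stood at 49.2, 50.7, 49.3 and 50.9 TPM in cKO libraries 1 to 4 and at 52.3, 51.4, 54.1 and 53.2 TPM in control. Every cKO library was below every control, as in 10.3% of all tested rows, but the gap was small. The mean was 94.9% of control, and the log2 change of -0.07 did not pass the test (interval -0.17 to 0.02, limma adjusted p = 0.305). After quantile normalization the change was -0.02.

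Mdm2 was then set beside a list of 35 other p53 targets, of which 34 were tested. Of these, limma called 22 higher and none lower, against 2.16% called higher over all rows, and their median log2 change was 0.55. Members and lists were chosen with earlier results of these libraries known, so this count is a description. Fas, 1 of the 22, had a control mean of 0.792 TPM and passed the minimum mean level only through its cKO mean of 2.54 TPM. Cdkn1a, an inhibitor of cyclin-dependent kinases, stood at 174 ± 27.0 TPM in cKO against 29.9 ± 3.76 TPM in control (SD, n = 4) and rose by 2.50 on the log2 scale. The receptor gene Eda2r rose by 2.38 on the log2 scale, the BH3-only gene Pmaip1 by 1.66 and Trp53inp1 by 1.46. The most abundant targets in control were Ak1 (adenylate kinase), which did not pass at 203 ± 6.98 TPM in cKO against 206 ± 8.56 TPM in control, and Rps27l, which rose by 0.51. For Cdkn1a, whose symbol is given to 2 rows, the row on chromosome 17 was used.

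The fitted change of Mdm2 was smaller than that of each called target on this list. Rchy1, a p53-induced gene outside the list, was called higher with a smaller change than Mdm2 (0.21, limma adjusted p = 0.0362). Of 34 targets, 23 had a larger fitted change than Mdm2 and 11 a smaller one, and the smallest change among the 22 called targets was 0.29. The log2 ratio of Mdm2 to each target, both as TPM + 1, was compared between groups, a test added after the data had been seen. For 19 targets, all of them called, the ratio fell in cKO with an exact permutation p of 0.0286, adjusted to 0.0389 over 34 targets. This p is the smallest the test can give, and the adjusted value follows from how many targets share it. The same libraries had already given these targets larger changes than Mdm2, so both values are a description and no separate evidence. Fas, which passed the filter through cKO, was among these 19. The other 3 called targets, Polk, Bbc3 and Ei24, had larger changes than Mdm2 (0.56, 0.54 and 0.29), but their ratios did not pass (adjusted p between 0.0694 and 0.188, exact permutation). For 6 targets the ratio rose with the same p, among them Ppm1d, a p53-induced phosphatase gene with a log2 change of -0.14, and Xpc at -0.16. Leaving out single libraries gave between 17 and 19 targets that rose more than Mdm2.

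**Figure D5:**
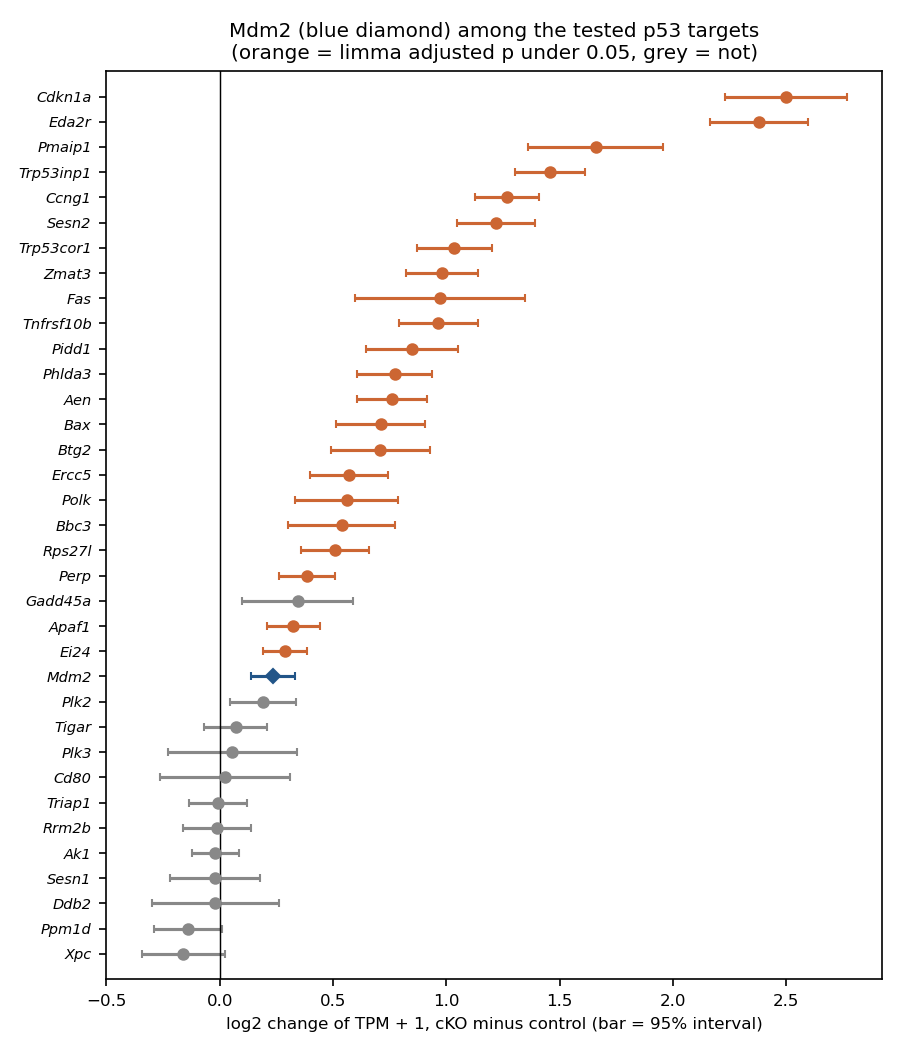
Fitted log2 change of TPM + 1 (cKO minus control, horizontal axis) of the 34 tested p53 targets and of Mdm2 (blue diamond), with bars for the 95% interval; orange marks an adjusted p under 0.05 in limma's test. Mdm2 at 0.24 lies below all 22 orange points, which run from 0.29 to 2.50.

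The rows most like Mdm2 were found by the root-mean-square difference between profiles of log2(TPM + 1) centred on the control mean, over the 8 libraries. These were Bscl2 (difference 0.0324, log2 change 0.24), Slc39a14 (0.0373, 0.22), Tsc22d1 (0.0423, 0.22) and Kank1 (0.0450, 0.18). None of the 4 is on the p53 target list used here. The measure favours rows with a change near 0.24, below that of every called target on that list, so this absence tests nothing. Of the 4, Slc39a14 did not pass (limma adjusted p = 0.0609). The same measure was applied to Npm1 after its values were seen, and gave Cks1b, Mnd1, Smim10l2a and Prim1, with differences between 0.103 and 0.124. Cks1b, a cyclin-dependent kinase subunit gene, did not reach the threshold at a change of -0.31 (limma adjusted p = 0.143). Prim1, the small primase subunit gene, fell by 0.37 on the log2 scale (limma adjusted p = 0.0385).

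Further ribosomal proteins reported to bind Mdm2 were read from a list of 15 genes. Of these, 1 was called higher and none lower by limma, and 2 had an unadjusted p under 0.05, against 6.4% called and 23.7% unadjusted over all rows. The list had a median log2 change of 0.04. The called gene was Rps27l, a ribosomal protein paralog that is also on the p53 target list, at 270 ± 19.4 TPM in cKO against 189 ± 13.0 TPM in control (SD, n = 4, limma adjusted p = 0.00359). The most abundant, Rpl4 and Rps26, had log2 changes of -0.07 and -0.02 and did not pass.

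Of 16 genes for other ubiquitin ligases, deubiquitinases and partners of p53 and Mdm2, 1 was called higher and 1 lower, where 2.16% and 4.23% of all rows were. Rchy1, a p53-induced ubiquitin ligase gene, rose by 0.21 on the log2 scale, to 33.8 ± 1.34 TPM in cKO against 29.0 ± 1.08 TPM in control (SD, n = 4, limma adjusted p = 0.0362). Usp28, a deubiquitinase gene, fell by 0.21 on that scale, to 78.3 ± 4.87 TPM in cKO against 90.6 ± 2.32 TPM in control (SD, n = 4, limma adjusted p = 0.0410). Both calls depended on the processing. No gene of the list was called higher under 10 of 18 alternatives, and none was called lower under 13. Which gene was called under the other alternatives was not recorded. The most abundant genes of the list in control, the ligase gene Stub1 (-0.16) and the deubiquitinase gene Otub1 (-0.13), did not pass, with limma adjusted p of 0.169 and 0.131.

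Enzymes that phosphorylate, dephosphorylate, acetylate or deacetylate p53 and Mdm2 made up a list of 19 tested genes. Of these, limma called none and 3 had an unadjusted p under 0.05, against 6.4% and 23.7% of all rows. With a pseudocount of 5, a mean TPM of at least 5 or array weights 1 gene of the list was called lower. Nearest the threshold as reported was the checkpoint kinase gene Chek1 (log2 change -0.30, limma adjusted p = 0.0501), which is named after its values were seen. The median log2 change of the 19 genes was -0.06. The kinase genes Akt1 (313 ± 16.7 TPM in cKO against 335 ± 7.29 TPM in control) and Csnk1a1 (174 ± 12.2 against 170 ± 10.2 TPM, SD, n = 4) were the most abundant in control. Among relatives and binding partners of p53, 11 of 14 genes were tested, limma called none (6.4% of all rows), and 4 had an unadjusted p under 0.05 (23.7%), with a median of -0.10. Without cKO library 4, 1 was called lower. Ncl (nucleolin) stood at 144 ± 9.14 TPM in cKO against 171 ± 14.9 TPM in control (SD, n = 4) and did not pass (log2 change -0.24, adjusted p = 0.0670 by limma). Srsf1, a splicing factor that can join the Rpl5 and Mdm2 complex, did not pass either (log2 change -0.17, adjusted p = 0.0890 by limma), and its symbol stands on 3 rows. The 3 genes below the filter were the p53 relatives Trp63 and Trp73 and the locus of the Mdm2 inhibitor Arf, Cdkn2a, which was listed between 0 and 0.377 TPM.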

How the data were processed

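The deposited table holds TPM values of 8 libraries, named so by the authors; the columns share 1 total. Per the submitters' processing notes, FastQC, Trim Galore 0.6.7, HISAT2 2.2.1, StringTie 2.2.1, featureCounts and DESeq2 and the build GRCm38 were used. Which tool wrote the table, the annotation and the use of strand are not given in the sources used here. Coordinates in the row names matched those of RefSeq (GRCm38.p6) for 49592 of the 49593 primary-chromosome rows found there by symbol. The sequencing depth cannot be read from TPM, so errors are those between libraries and no counting error is given. No source says whether the libraries are separate embryos beyond the term biological replicates, so p-values measure the spread between these libraries.

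The test was limma 3.58.1 under R 4.3.3 on log2(TPM + 1), two-sided, with group as its only term and eBayes with trend. It ran over the 15541 rows that reached a mean of 1 TPM, with Benjamini-Hochberg adjustment over all of them and 95% intervals from the moderated fit. The procedure was tested on simulated data. Ratios between genes were compared by exact two-sided permutation over the 70 assignments of libraries to groups. The set of 10 genes and the gene lists were chosen with earlier results of these data known. Named were the 10 genes, Rps19bp1, all called genes of a list (the 4 with the largest change where more than 6 were called), the 2 most abundant of each list, the 4 rows most like a called gene, and rows that overlap or share a symbol. The values of Wrap53, Nkx2-5, Nppa, Chek1, Fas, Polk, Bbc3, Ei24, Ppm1d, Xpc and the rows most like Npm1 were named after they were seen. Same-numbered libraries did not deviate together (correlations -0.01, 0.07, 0.06 and -0.09), so numbers were not used as pairs. Alternatives are listed with their effect below. Figures were drawn with matplotlib 3.10.9.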

Additional observations from a re-analysis of the deposited data

Results flagged for a closer look

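Of 28 groups of 4 values examined for a sample far from the others (the 10 genes, Rps19bp1 and 3 ratios in cKO and in control), 1 held such a sample. Rrs1 stood at 37.2 TPM in control library 1, while the other 3 controls lay between 33.5 and 33.9 TPM. Chance gives such a sample in about 5% of groups. Without this library the log2 change of Rrs1 was -0.12 in place of -0.15, and it did not pass the test in either case.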

How the results depend on the processing

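Under 18 alternatives, changed 1 at a time, Rps19bp1 stayed lower in cKO and past the threshold (log2 change -1.49 to -1.18), and between 19 and 22 p53 targets were called higher and 0 lower. Mdm2 stayed higher (0.22 to 0.29) and kept its call under 16 of 18 (limma adjusted p 0.00721 to 0.0590). It lost the call without control replicate 3 (0.0508) and with the replicate number as a block (0.0590), which leaves 3 residual degrees of freedom. The number of the 10 genes called was 1, 0 with the replicate block, and 0 to 2 when single libraries were left out. The 2 were Mdm2 and Trp53, without control replicate 4 (Trp53 0.22, limma adjusted p = 0.0490). Rpl5 changed sign after quantile normalization (0.018), rescaling without mitochondrial and globin rows (0.017), without cKO replicate 3 (0.014) and without control replicate 1 (0.0033), with a range of -0.041 to 0.014 over single libraries left out, and Mdm4 after quantile normalization (0.014) and that rescaling (0.0044). For these genes the cause was not tested. The number of rows called, 994 as reported, was 347 with no filter on low values, where more rows were tested, 609 with eBayes without a trend, 420 with the replicate block, and 390 to 938 when single libraries were left out. For the ratio of Mdm2 to Mdm4, leaving out single libraries gave log2 differences of 0.25 to 0.31. It was past an unadjusted p of 0.05 except without cKO replicate 4 (0.26, exact permutation p = 0.0571) and in the paired sign test for the replicate block (0.27, exact p = 0.125, the smallest that 4 pairs allow). Each of the 10 symbols stood on 1 row, so the planned sum over rows of a symbol was not run. The unknown depth limits what can be said of small differences such as those of Rpl5, Rpl11, Mdm4 and Usp7.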
